A study of Mus musculus with 12 samples.

Results

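The livers of ICR mice given busulfan alone were compared with control livers, gene by gene. ICR is an outbred strain, and the mice were 8 weeks old. All genes with at least 1 FPKM in 3 or more of the 6 libraries of both groups were described, which kept 10260 of the 21004 genes in the deposited table. FPKM counts sequenced fragments, corrected for how long the transcript is and how large the library was. Each group had 3 libraries of total RNA from frozen liver. The labels give the busulfan group by its agent alone, with no dose, route or time of treatment, and give no sex. The control group carries no agent in its label. Another 6 libraries of the series, 3 of busulfan plus L.J. at 10 mg/kg and 3 of L.J. at 10 mg/kg, are used here only where named. L.J. is not explained in the labels, and the series title presents it as a rescue of the harm that busulfan does to the liver. The comparison of busulfan with control therefore asks what there was to rescue.

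Busulfan is an alkylating drug that crosslinks DNA and empties the bone marrow and the germ line of stem cells. The liver clears it by joining it to glutathione, a reaction that glutathione S-transferases catalyse. Crosslinked DNA activates p53, whose targets stop the cell cycle or repair DNA, and in many tissues damaged DNA also switches on interferon-stimulated genes. Hepatocytes make glucose during fasting, under glucagon, which acts through the transcription factor CREB, and under glucocorticoids.

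The libraries were liver by their markers, with albumin (Alb) at 28008 to 34688 FPKM with busulfan and at 21329 to 38530 FPKM in control. The 21 genes of the major urinary proteins (Mup), abundant secreted pheromone carriers, held 19.4%, 22.2% and 30.8% of all FPKM with busulfan, against 11.7%, 35.4% and 29.2% in control. Control replicate 1 stood apart from the other control libraries. It had the lowest Mup share of the 6 libraries and the highest share of the 6 globin genes, which held 0.0361% to 0.0822% of all FPKM with busulfan, 0.411% in control replicate 1, and 0.0515% and 0.0713% in control replicates 2 and 3. Neither share differed between the groups beyond the spread of the libraries, with exact two-sided permutation p of 1 for Mup and 0.5 for globin, where 3 against 3 libraries can give no p below 0.1. The labels do not say that the 3 libraries of a group came from separate mice, so p-values reflect only how far these samples spread, which may be technical.

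One gene passed the test over all genes. In limma on log2(FPKM + 1), a linear model with moderated variances and Benjamini-Hochberg adjustment, 1 of the 10260 genes had an adjusted p under 0.05, which is 0.00975%, and with the replicate number as a block 2 genes did. At an unadjusted p under 0.05, 148 genes (1.44%) were higher and 49 (0.478%) lower with busulfan. The 3 busulfan values lay wholly above the 3 control values for 462 genes (4.5%) and wholly below them for 139 genes (1.35%). The log2 difference was above 0 for 64.4% of all genes, with a median of 0.04. Each count below of list members that read higher with busulfan than in control stands against this share. This lean towards higher values depended on how the libraries were scaled. After each library was scaled to a common median, 104 genes were higher and 93 lower at an unadjusted p under 0.05, and 269 genes lay wholly above and 327 wholly below. Quantile normalization gave 102 higher and 105 lower. Without control replicate 2 there were 102 higher and 77 lower, without control replicate 1 634 and 123, and without busulfan replicate 2 68 and 42.

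The gene that passed was Hist1h2br, which encodes a histone H2B of the replication-dependent cluster on chromosome 13 (gene ID 665622, mm10, 21833743 to 21837530). It rose to 2.65, 3.11 and 4.17 FPKM with busulfan, against 0.11, 0.04 and 0 FPKM in control. The groups were far apart, with a log2 difference of 2.02 ± 0.15 (SE) and an adjusted p of 0.0204 in limma. Hist1h2br passed the filter on low values through the busulfan libraries alone, so it had to differ, as had 7 other genes. In the other libraries its values fell near 0 or above 2 within each group, with 4.98, 0.13 and 2.71 FPKM in busulfan plus L.J. and 0.03, 2.04 and 2.72 FPKM in L.J. The H2B genes of this cluster are nearly identical, and how shared reads were assigned is not given in the sources used here. Hist1h2bq, another of these copies, read 6.08, 2.72 and 0.08 FPKM with busulfan and 12.51, 0 and 0.1 FPKM in control. Summed over the H2B genes tested in the cluster, the libraries overlapped, with 95.2, 74.8 and 62.1 FPKM for busulfan and 97.3, 55.3 and 73.3 FPKM for control. The call on Hist1h2br was therefore treated as uncertain. Its adjusted p in limma was 0.0646, 0.262 and 0.0581 without busulfan replicates 1, 2 and 3, and 0.0197, 0.0863 and 0.230 without control replicates 1, 2 and 3, and over all alternatives it ran from 0.000312 with library weights to 1.00 with all 12 libraries. Of the 12 replication-dependent histone genes tested, 10 read higher and 2 lower, with a median log2 difference of 0.08. The linker histone gene Hist1h1c was the other member whose groups did not overlap, at 13.3, 12.5 and 17.9 FPKM with busulfan and 11.01, 11.05 and 7.9 FPKM in control.

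**Figure D1:**
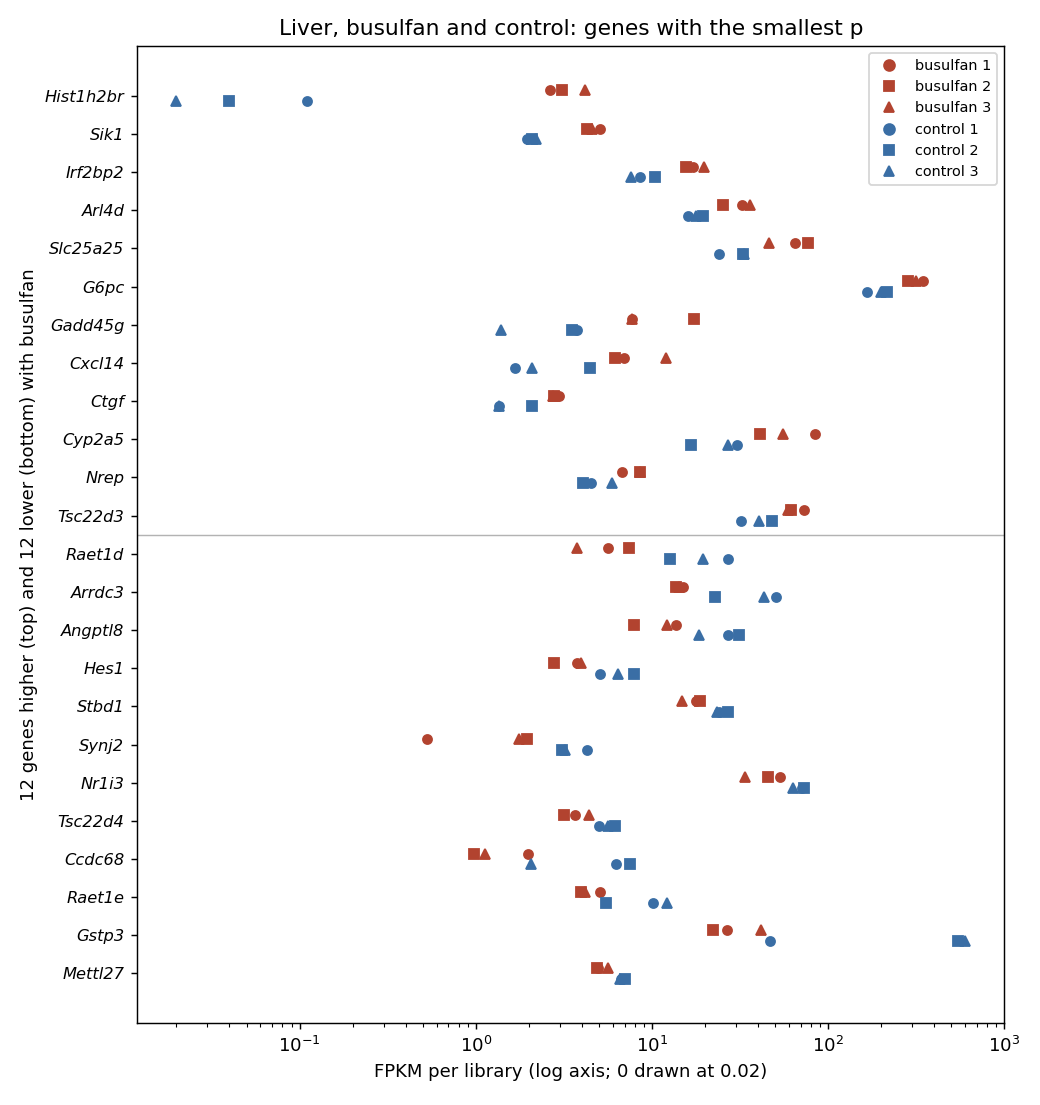
FPKM in each of the 6 libraries (horizontal log axis) for the 12 genes higher and the 12 genes lower with busulfan that had the smallest p among genes with groups that do not overlap; red marks are busulfan and blue marks control, with a marker shape per replicate number. Hist1h2br lies at 2.65 to 4.17 FPKM with busulfan and at 0 to 0.11 FPKM in control, while Gstp3 in control replicate 1 lies at 46.7 FPKM, near the busulfan libraries.

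The higher values with busulfan included a run of genes that fasting signals switch on in hepatocytes. None of them passed the adjusted test. Sik1, a kinase that CREB induces and that restrains the coactivators of CREB (gene ID 17691, chromosome 17, 31844248 to 31855804), read 5.06, 4.27 and 4.60 FPKM with busulfan, against 1.96, 2.08 and 2.2 FPKM in control. These were tight groups with a wide gap, and Sik1 came nearest to passing after Hist1h2br. Its log2 difference was 0.87 ± 0.11 (SE), with an adjusted p of 0.290 in limma, and of 0.0148 (with library weights) to 1.00 over the alternatives. Slc25a25, which exchanges ATP for phosphate across the mitochondrial membrane, read 65.4, 77.3 and 46.3 FPKM with busulfan, against 24.1, 32.96 and 33.2 FPKM in control. G6pc, the catalytic subunit of glucose-6-phosphatase that releases glucose from the liver, read 345, 286 and 316 FPKM with busulfan, against 167, 216 and 200.4 FPKM in control. Neither gene's groups overlapped, and the mean of G6pc was 316 ± 29.5 FPKM with busulfan and 195 ± 24.8 FPKM in control (SD, n = 3 each). Gadd45g, a stress-induced growth arrest gene, read 7.70, 17.4 and 7.70 FPKM with busulfan and 3.76, 3.52 and 1.40 FPKM in control. Busulfan replicate 2 stood above the others there, and without it the log2 difference of 1.59 became 1.22. Its adjusted p in limma was 0.0313 with library weights and 1.00 with equal weights.

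Pck1, which encodes the enzyme that commits carbon to glucose synthesis, did not separate the groups. It read 778, 514 and 682 FPKM with busulfan, against 249, 1079 and 685 FPKM in control. The control libraries held both the lowest and the highest value of the 6. Of the 24 CREB and fasting genes tested, 18 read higher and 6 lower, with a median log2 difference of 0.14, against 0.04 over all genes. The 5 members that lay wholly above control were G6pc, Sik1, Slc25a25, Tat and Gadd45g, and no member lay wholly below, beside 4.5% and 1.35% of all genes. All lists were drawn up with earlier results of these data known, here with the small p of Slc25a25 among them. The counts of this list and of the others are therefore no independent evidence of a direction.

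Glucocorticoid targets gave a mixed picture. Tsc22d3, the glucocorticoid-induced leucine zipper, read 73.6, 62.0 and 59.5 FPKM with busulfan, against 32.1, 48.4 and 40.7 FPKM in control. Errfi1, a feedback inhibitor of the EGF receptor, read 440, 505 and 464 FPKM with busulfan, against 250.02, 411 and 298 FPKM in control. Tat, which starts tyrosine breakdown and is a classic hormone-induced liver enzyme, read 639, 558 and 502 FPKM with busulfan, against 437, 412 and 433 FPKM in control. All 3 lay wholly above control. Fkbp5, a chaperone of the glucocorticoid receptor and one of its most sensitive targets, lay wholly below, with 4.74, 5.66 and 5.92 FPKM for busulfan and 6.46, 10.4 and 7.31 FPKM for control. Per1, a clock gene that glucocorticoids also induce, read 5.36, 4.09 and 4.61 FPKM with busulfan and spread widely in control, at 0.89, 10.4 and 4.11 FPKM. Of 19 glucocorticoid targets tested, 15 read higher and 4 lower, the median log2 difference was 0.27, and 4 lay wholly above and 1 wholly below, beside 4.5% and 1.35% of all genes. The same 4 and 1 had an unadjusted p under 0.05, beside 1.44% higher and 0.478% lower over all genes, and all had an adjusted p of 1.00 in limma. Tat and Gadd45g are also in the CREB and fasting list, so both counts share these genes. Lpin1, also in both lists, had the lowest log2 difference of each, -0.53, with groups that overlapped.

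**Figure D2:**
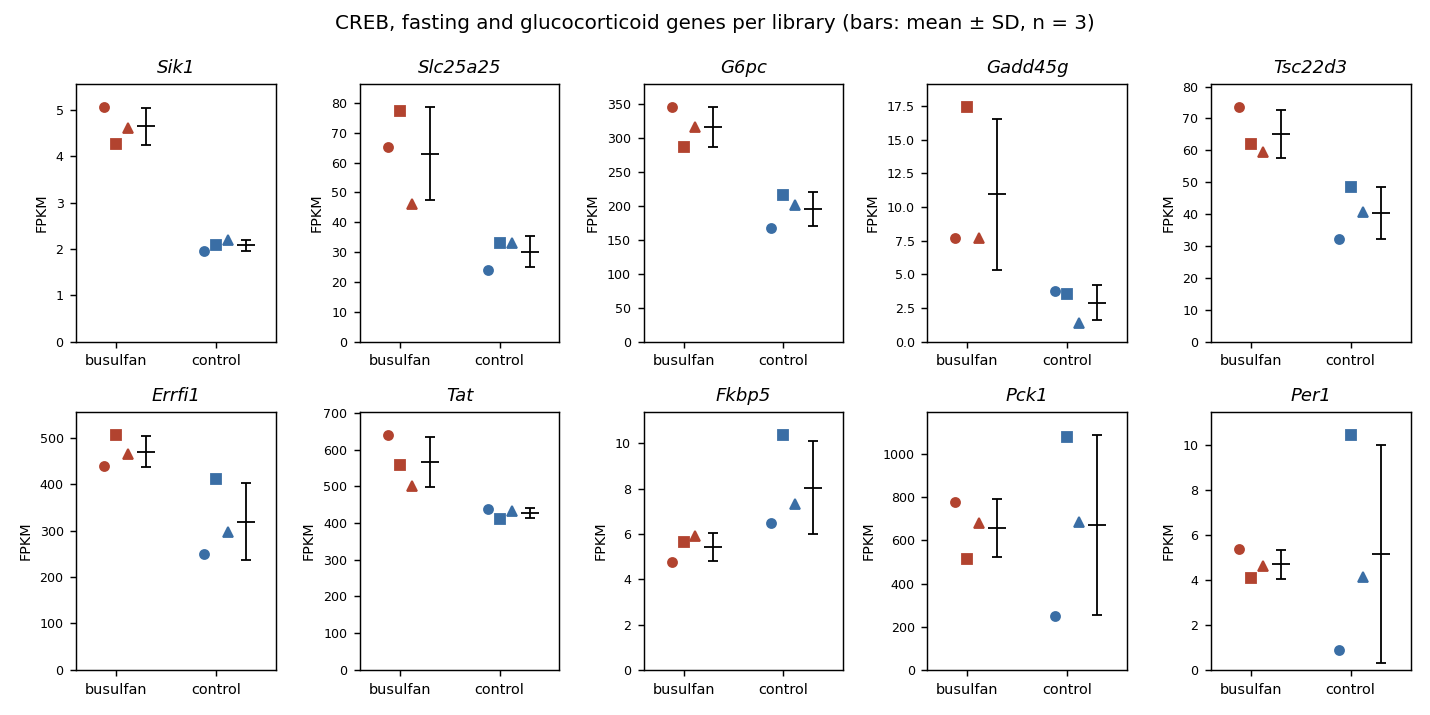
FPKM per library for 10 genes of the CREB, fasting and glucocorticoid lists, busulfan left and control right in each panel, with a marker shape per replicate number and the mean ± SD (n = 3) in black; every vertical axis starts at 0. Sik1 sits at 4.27 to 5.06 FPKM with busulfan and at 1.96 to 2.2 FPKM in control, whereas Pck1 and Per1 have their lowest and highest values within control.

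The full cAMP response element, to which CREB binds, was searched for in the promoters of the genes tested. The element searched was TGACGTCA, which reads the same on both strands, in the RefSeq promoters of GRCm38, the build with the coordinates of mm10, over 250 bases before and 50 bases after each start. It was found in 299 of 8287 genes tested that have a promoter there, or 3.61%. It stood in 1 of 18 CREB and fasting genes (5.56%), near the share over all genes. It also stood in 2 of 17 glucocorticoid targets (11.8%) and in 2 of the 9 genes with a promoter among the 12 highest by p (22.2%). These counts are small. Arl4d, among the 12, is in neither list, and the glucocorticoid target with a match besides Errfi1 is not shown. The match lay 150 bases upstream of the start in Slc25a25 (chr2:32424179-32424246, minus strand), 26 bases upstream in Arl4d (chr11:101665485-101665552, plus strand) and 51 bases upstream in Errfi1 (chr4:150854989-150855056, plus strand). The stretches around it are shown 5′ to 3′ on the strand of the gene, with the element in capitals, because these genes carry the element and lay wholly above control, Errfi1 by a narrow margin.
Slc25a25: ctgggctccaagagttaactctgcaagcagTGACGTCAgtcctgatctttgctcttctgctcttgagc
Arl4d: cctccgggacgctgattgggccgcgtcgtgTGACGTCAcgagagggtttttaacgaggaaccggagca
Errfi1: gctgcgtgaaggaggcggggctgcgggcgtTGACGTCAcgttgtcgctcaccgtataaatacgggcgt
A match describes the letters of the window and is not evidence of binding. The genes shown were picked for both traits, so they do not show that the element goes with higher values.

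The other genes of the 12 with the smallest p among the higher ones had varied roles. Arl4d, a small GTPase of the ARF family, read 32.6, 25.4 and 35.9 FPKM with busulfan, against 16.04, 19.4 and 17.7 FPKM in control. Irf2bp2, a transcriptional corepressor, read 17.1, 15.6 and 19.7 FPKM with busulfan, against 8.52, 10.4 and 7.61 FPKM in control. Cyp2a5, the coumarin hydroxylase that rises in many kinds of liver injury, read 84.3, 40.9 and 55.7 FPKM with busulfan, against 30.5, 16.8 and 27.2 FPKM in control. The groups were apart in each, by a log2 difference of 0.78 for Arl4d, 0.91 for Irf2bp2 and 1.23 for Cyp2a5. The chemokine Cxcl14 read 6.96, 6.17 and 12.02 FPKM with busulfan, against 1.67, 4.43 and 2.08 FPKM in control. Ctgf, a matrix-associated growth factor, averaged 2.84 ± 0.122 FPKM with busulfan and 1.603 ± 0.430 FPKM in control, and Nrep averaged 7.97 ± 1.06 FPKM with busulfan and 4.84 ± 0.985 FPKM in control (SD, n = 3 each). Each of these 5 genes had an adjusted p of 1.00 in limma, as had Nrep. With library weights, Irf2bp2 (adjusted p 0.0174), Ctgf (0.0411) and Cxcl14 (0.0450) passed in limma.

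The 12 genes with the smallest p among the lower ones included 2 ligands of NKG2D, the activating receptor of natural killer cells, of which Raet1d had the smallest p of the 12. Raet1d read 5.62, 7.42 and 3.74 FPKM with busulfan, against 26.99, 12.7 and 19.5 FPKM in control. Raet1e read 5.05, 3.96 and 4.18 FPKM with busulfan, against 10.2, 5.51 and 12.1 FPKM in control. The log2 difference was -1.63 ± 0.30 (SE) for Raet1d and -0.87 ± 0.25 (SE) for Raet1e, each with an adjusted p of 1.00 in limma. The genes of this family resemble one another closely, so reads may be split among them. Arrdc3, an arrestin-like adaptor of membrane receptors, was level with busulfan at 15.1, 13.8 and 14.3 FPKM, against 50.9, 22.8 and 43.1 FPKM in control. Angptl8, an insulin-induced secreted inhibitor of lipoprotein lipase, read 13.7, 7.87 and 12.1 FPKM with busulfan, against 26.9, 31.1 and 18.6 FPKM in control. Hes1, a repressor that Notch signals induce, averaged 3.50 ± 0.612 FPKM with busulfan and 6.48 ± 1.42 FPKM in control (SD, n = 3 each). Stbd1, which binds glycogen, averaged 17.1 ± 2.02 FPKM with busulfan and 24.9 ± 1.88 FPKM in control (SD, n = 3 each). With library weights, Raet1d (adjusted p 0.0301), Raet1e (0.0450) and Arrdc3 (0.0174) passed in limma. Synj2, Tsc22d4, Ccdc68 and Mettl27 also lay wholly below control, with log2 differences between -1.31 for Ccdc68 and -0.34 for Mettl27.

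Gstp3, a pi-class glutathione transferase on chromosome 19 (gene ID 225884, 4057470 to 4059605), had the largest fitted difference of these 12, carried by control replicates 2 and 3. It read 26.6, 22.3 and 41.7 FPKM with busulfan, against 46.7, 550 and 599 FPKM in control. Control replicate 1 lay close to the busulfan libraries, and the other control libraries lay more than 500 FPKM above them. The fitted log2 difference was -3.06 ± 0.91 (SE) with an adjusted p of 1.00 in limma, and -4.25 ± 0.25 with an adjusted p of 0.00394 without control replicate 1, the lowest over the alternatives. It also passed with library weights, at an adjusted p of 0.0174, and reached up to 1.00 in the others. The libraries that received L.J. split the same way, with 13.9, 27.9 and 40.5 FPKM in busulfan plus L.J. and 611, 630 and 689 FPKM in L.J. Over the 12 libraries, Gstp3 was thus at 13.9 to 41.7 FPKM in the 6 with busulfan and at 550 to 689 FPKM in 5 of the 6 without it, with control replicate 1 as the exception. This view over 12 libraries was taken after the values were seen and has no test of its own.

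No other glutathione transferase lay wholly below control. Gstp1, the main pi-class enzyme of mouse liver, read 4185, 3186 and 3353 FPKM with busulfan, against 2677, 1720 and 2988 FPKM in control, wholly above it. Gstp2, a near copy of Gstp1, averaged 13.7 ± 4.68 FPKM with busulfan and 12.6 ± 1.58 FPKM in control (SD, n = 3 each). Gsta1, of the alpha class that conjugates busulfan in humans, read 13.8, 3.90 and 2.92 FPKM with busulfan and 5.34, 3.08 and 5.61 FPKM in control, with 1 busulfan library above all others. Gstm3 of the mu class read 183, 249 and 86.6 FPKM with busulfan and 92.4, 71.9 and 90.3 FPKM in control, and the groups overlapped. Of 22 glutathione transferase genes tested, 14 (63.6%) read higher and 8 lower, against 64.4% of all genes higher, with a median log2 difference of 0.09. The rate-limiting enzymes of glutathione synthesis were level, with Gclc at 143 ± 18.9 FPKM with busulfan and 139 ± 26.1 FPKM in control, and Gclm at 83.3 ± 8.00 FPKM with busulfan and 81.5 ± 12.9 FPKM in control (SD, n = 3 each). Of the 20 genes of glutathione synthesis and NRF2 targets, 12 (60.0%) read higher, against 64.4% of all genes, with a median of 0.04. None lay wholly above and 1 wholly below, beside 4.5% and 1.35% of all genes.

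**Figure D3:**
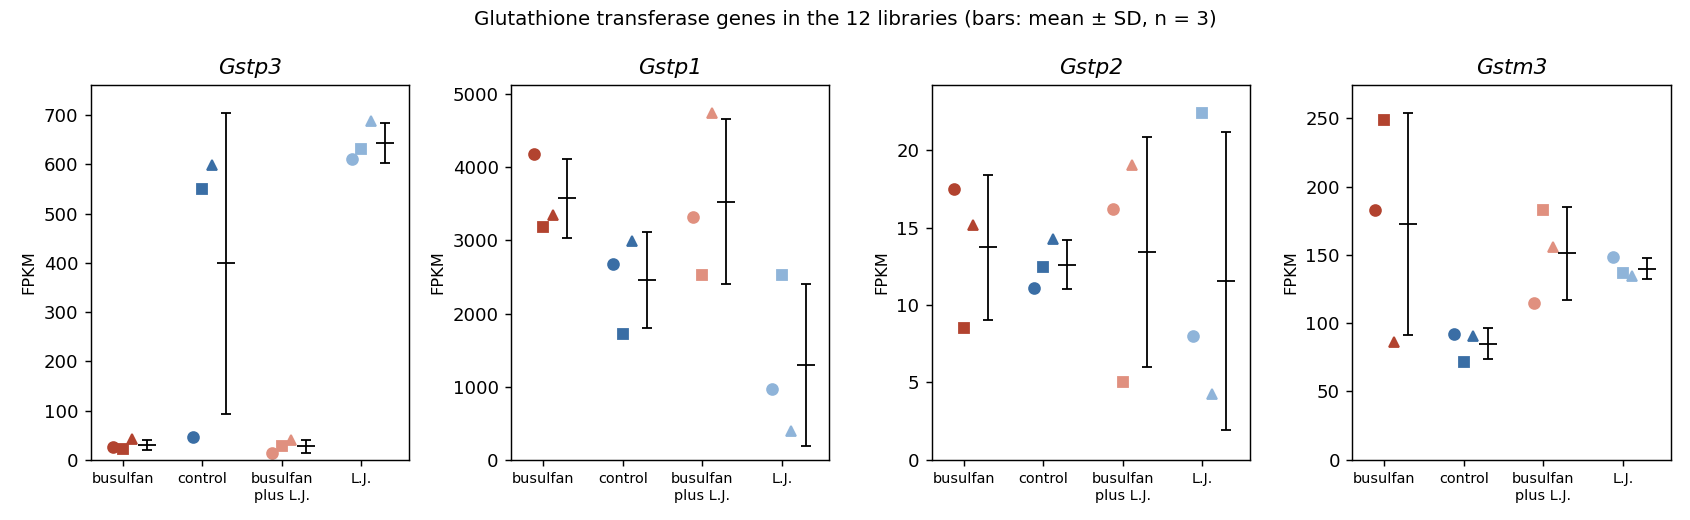
FPKM per library of the glutathione transferase genes Gstp3, Gstp1, Gstp2 and Gstm3 in busulfan, control, busulfan plus L.J. and L.J. libraries (left to right), with a marker shape per replicate number and the mean ± SD (n = 3) in black; every vertical axis starts at 0. Gstp3 lies at 13.9 to 41.7 FPKM in the 6 libraries with busulfan and at 46.7 to 689 FPKM in the 6 without.

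Drug-metabolizing enzymes lay on both sides of control. Nr1i3, the xenobiotic receptor CAR, read 53.3, 45.5 and 33.6 FPKM with busulfan, against 71.6, 72.9 and 63.0 FPKM in control, with a log2 difference of -0.66 ± 0.18 (SE). Cyp3a11, the main drug-oxidizing cytochrome P450 of mouse liver, read 3270, 2737 and 2793 FPKM with busulfan, against 1793, 2499 and 1674 FPKM in control. Cyp3a13 of the same family lay the other way, at 10.2, 12.3 and 12.9 FPKM with busulfan and 14.8, 13.5 and 22.5 FPKM in control. Cyp2c29, a target of CAR, averaged 1276 ± 178 FPKM with busulfan and 1203 ± 118 FPKM in control (SD, n = 3 each), and the groups overlapped. Of 27 such genes tested, 12 read higher, 3 lay wholly above and 2 wholly below, beside 4.5% and 1.35% of all genes, and the median log2 difference was -0.02.

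Interferon-responsive genes leaned higher with busulfan, by small amounts. Of 40 type I interferon-stimulated genes tested, 39 had a log2 difference above 0, against 64.4% of all genes, and after median scaling 38 had. Their median log2 difference was 0.30, against 0.04 over all genes. In all 6 members lay wholly above control and no member below, beside 4.5% and 1.35% of all genes, and 7 were higher at an unadjusted p under 0.05, beside 1.44% of all genes. No member passed the adjusted test. Ifit2 passed the filter on low values through the busulfan libraries alone, so it had to lie wholly above control and is among the 6. Ifit1, which binds foreign RNA, read 2.11, 4.80 and 3.36 FPKM with busulfan, against 1.97, 1.59 and 1.46 FPKM in control. Ifit3b of the same family read 1.59, 2.64 and 1.94 FPKM with busulfan, against 1.15, 0.85 and 1.27 FPKM in control. Trim30a, a ubiquitin ligase that interferon induces, read 1.87, 2.5 and 1.75 FPKM with busulfan, against 1.35, 1.18 and 1.34 FPKM in control. These groups were apart by narrow gaps, and the reads of Ifit genes may be split among their copies. The groups overlapped for the classic members Isg15, a ubiquitin-like modifier, and Irf7, which amplifies interferon production. Isg15 read 5.60, 9.57 and 6.72 FPKM with busulfan and 8.06, 3.77 and 4.71 FPKM in control. Irf7 read 15.8, 29.3 and 14.8 FPKM with busulfan and 20.3, 7.89 and 11.5 FPKM in control.

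The size of this lean rested on single libraries. Measured from each gene's mean over the control libraries, the median member stood at 0.08, 0.54 and 0.24 log2 units in the busulfan replicates. It stood at 0.27, -0.19 and -0.07 in the control replicates. Control replicate 1 was thus level with the busulfan libraries. The median log2 difference of the list was 0.17 without busulfan replicate 2 and 0.17 without control replicate 2, and 0.44 without control replicate 1. The interferon-gamma GTPases and chemokines followed the same libraries. Of 21 tested, 19 read higher, with a median log2 difference of 0.37, which was 0.19 without busulfan replicate 2, 0.16 without control replicate 2 and 0.57 without control replicate 1. Cxcl9, a chemokine for T cells, lay wholly above control, at 5.41, 7.42 and 8.98 FPKM with busulfan and 4.65, 2.26 and 3.91 FPKM in control. Irgm1, a GTPase of cell defence, read 26.98, 37.9 and 32.9 FPKM with busulfan and 27.3, 17.2 and 24 FPKM in control, with control replicate 1 above busulfan replicate 1. Ccl5, another T cell chemokine, lay wholly above control, at 2.93, 3.69 and 2.74 FPKM with busulfan and 2.26, 1.43 and 1.58 FPKM in control.

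The interferon-stimulated response element marked this list by sequence. The core searched was a pair of GAAA letters 2 bases apart, on either strand of the same promoters, where matches may overlap each other. It was found in 14 of the 30 type I interferon-stimulated genes with a promoter and in 9 of 14 interferon-gamma genes, against 314 of 8287 genes tested, or 3.79%. The members were listed as known interferon-responsive genes, so these shares describe the lists and not an effect of busulfan. The stretches of 3 members are shown because the elements of the Ifit genes come in pairs and those of Isg15 in an overlapping run of 3. They are given 5′ to 3′ on the strand of the gene with matches in capitals, from chr19:34640755-34640843 (plus strand) for Ifit1, chr19:34607739-34607842 (plus strand) for Ifit3b and chr4:156200845-156200926 (minus strand) for Isg15.
Ifit1: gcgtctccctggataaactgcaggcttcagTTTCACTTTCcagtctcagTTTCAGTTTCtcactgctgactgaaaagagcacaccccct
Ifit3b: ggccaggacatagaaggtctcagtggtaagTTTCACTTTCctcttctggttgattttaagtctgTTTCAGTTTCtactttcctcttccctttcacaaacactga
Isg15: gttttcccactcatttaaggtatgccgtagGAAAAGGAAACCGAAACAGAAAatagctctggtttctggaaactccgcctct
In Ifit1 and Ifit3b the core lies on the opposite strand and reads as a pair of TTTC. Isg15 carried its elements with groups that overlapped, and Ifit1 and Ifit3b carried theirs with groups that did not.

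**Figure D4:**
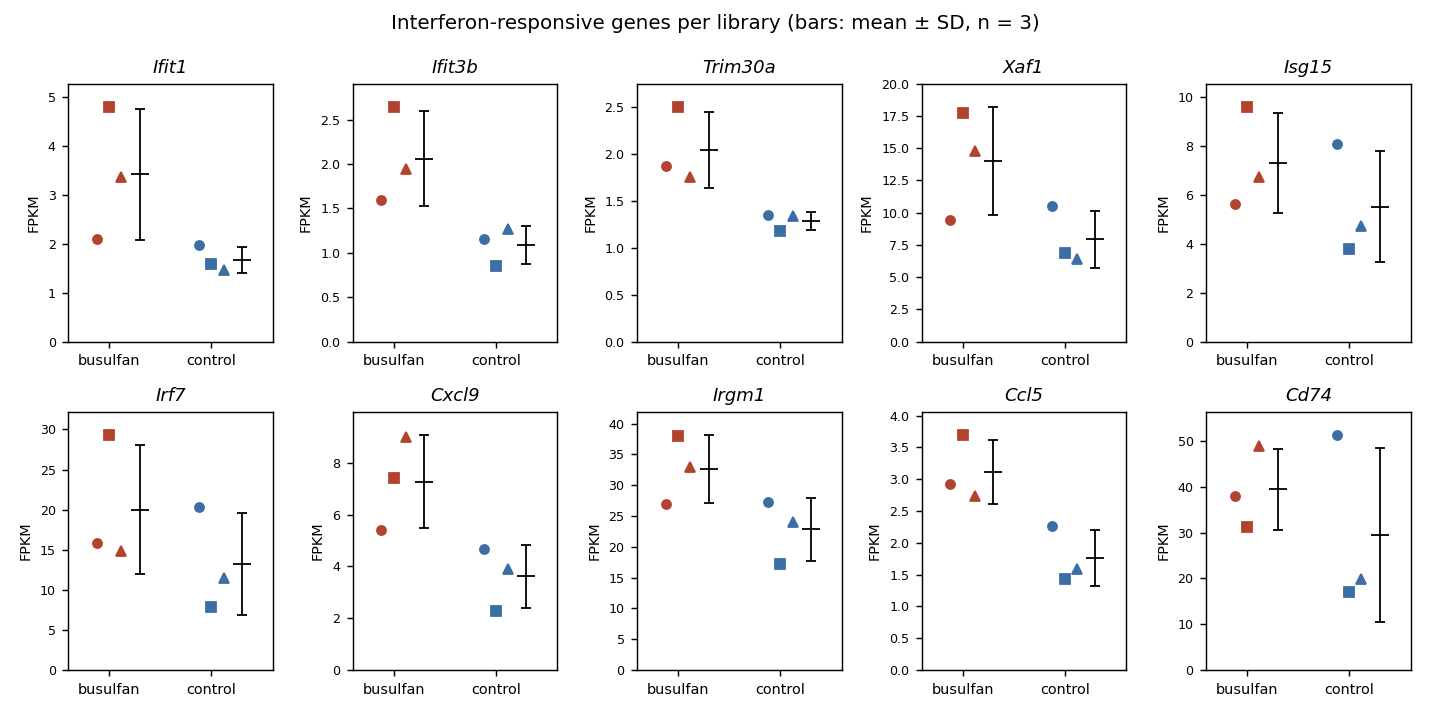
FPKM per library for 10 interferon-responsive genes, busulfan left and control right in each panel, with a marker shape per replicate number and the mean ± SD (n = 3) in black; every vertical axis starts at 0. Ifit1, Ifit3b, Trim30a, Cxcl9 and Ccl5 do not overlap between the groups, while for Isg15 the busulfan range of 5.60 to 9.57 FPKM includes control replicate 1 at 8.06 FPKM.

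Antigen presentation and macrophage markers varied with the same libraries. Of 23 MHC and antigen processing genes tested, 21 read higher and no member lay wholly apart, and the median log2 difference of 0.23 was 0.00 without control replicate 2 and 0.41 without control replicate 1. Cd74, the MHC class II chaperone, read 38.1, 31.3 and 49.0 FPKM with busulfan and 51.3, 17.1 and 19.96 FPKM in control. Of 21 Kupffer cell and macrophage markers tested, 20 read higher, with a median of 0.29, which was 0.17 without busulfan replicate 2 and 0.09 without control replicate 2, and 0.48 and 0.53 without busulfan replicate 3 and control replicate 1. Their summed level ran from 269 to 404 FPKM with busulfan and from 209 to 405 FPKM in control, and none of them was at 0 in all 6 libraries. The scavenger receptor Cd163 lay wholly above control, at 3.03, 2.87 and 2.07 FPKM with busulfan and 1.89, 1.84 and 1.66 FPKM in control. The defining marker Clec4f read 28.9, 33.4 and 20.1 FPKM with busulfan and 36.8, 15.5 and 20.2 FPKM in control, and the groups overlapped. In whole liver, a change in the number of cells of a type and a change in their RNA per cell cannot be told apart, and the part of these markers in the interferon values was not tested. Of 22 T and NK cell markers, 20 were in the deposited table and 1 passed the filter on low values (Ccl5). Of 16 B and plasma cell markers, 11 were in the deposited table and 1 passed (Cd37).

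Genes of the DNA damage response showed no common direction. Of 21 p53 targets tested, 11 read higher (8 after median scaling), 1 lay wholly above and 1 wholly below, beside 4.5% and 1.35% of all genes, with a median log2 difference of 0.01. Cdkn1a, the p53-induced inhibitor of the cell cycle, read 9.43, 21.7 and 22.98 FPKM with busulfan and 12.7, 14.6 and 10.97 FPKM in control. Busulfan replicate 1 was the lowest of the 6 libraries and the other busulfan replicates the highest. Mdm2, which degrades p53, averaged 7.92 ± 1.05 FPKM with busulfan and 8.14 ± 0.447 FPKM in control, and Ccng1 averaged 8.64 ± 0.797 FPKM with busulfan and 9.78 ± 1.58 FPKM in control (SD, n = 3 each). Gdf15, a secreted stress signal, lay wholly below control, at 2.43, 2.06 and 0.78 FPKM with busulfan and 6.20, 2.65 and 2.48 FPKM in control. The death receptor gene Fas lay wholly above, at 9.41 ± 0.506 FPKM with busulfan and 8.28 ± 0.740 FPKM in control (SD, n = 3 each). Of 27 genes that repair crosslinks and alkylated bases, 16 read higher with a median of 0.02, and Fancg alone lay apart, at 1.26, 1.13 and 1.54 FPKM with busulfan and 0.84, 1.11 and 0.97 FPKM in control. Mgmt, which removes alkyl groups from guanine, read 9.23, 5.09 and 4.42 FPKM with busulfan and 12.4, 3.97 and 7.01 FPKM in control. Only 7 of 25 cell cycle genes passed the filter on low values, and of these 2 read higher, with a median of -0.05 and no groups apart. A gene that did not pass with 3 against 3 libraries of this spread is not shown to be equal in both groups.

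Chaperones read slightly higher throughout their list. All 23 heat shock genes tested had a log2 difference above 0, against 64.4% of all genes, and 20 kept this sign after median scaling. Their median was 0.15, against 0.04 over all genes. It was 0.08 without busulfan replicate 2 and 0.09 without control replicate 1. Hspb1, a small heat shock protein, read 10.8, 15.4 and 10.6 FPKM with busulfan, against 8.88, 9.53 and 7.96 FPKM in control. Hsp90aa1, the inducible cytosolic HSP90, read 70.4, 112 and 73.3 FPKM with busulfan, against 66.1, 63.4 and 65.8 FPKM in control. Busulfan replicate 2 was the highest library for both. The chaperone of the endoplasmic reticulum Hspa5 averaged 271 ± 25.8 FPKM with busulfan and 259 ± 32.2 FPKM in control (SD, n = 3 each), and of 28 genes of the unfolded protein response 17 read higher with no groups apart.

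Fat and sterol metabolism showed control replicate 1 apart from the other libraries. Fasn, the fatty acid synthase, read 38.4, 45.9 and 28.1 FPKM with busulfan, against 87.9, 19.2 and 18.4 FPKM in control. The busulfan libraries lay between control replicate 1 and the other control replicates. Pck1, given above, had its lowest value in the same control library. The median log2 difference of 25 fatty acid and triglyceride synthesis genes was 0.07, and 0.31 without control replicate 1. That of 25 cholesterol genes was -0.01, and 0.27 without control replicate 1 and -0.21 without busulfan replicate 2.

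Fatty acid oxidation leaned slightly lower. Of 37 PPARA targets and fatty acid oxidation genes tested, 10 read higher and 27 lower, with a median log2 difference of -0.08, which was -0.01 without control replicate 1 and -0.19 without busulfan replicate 1. Cyp4a32, a fatty acid hydroxylase, lay wholly below control, at 19.3, 16.4 and 29.98 FPKM with busulfan and 33.2, 75.1 and 31.2 FPKM in control. Control replicate 2 was far above the rest there. Ppara itself averaged 29.9 ± 2.74 FPKM with busulfan and 31.2 ± 2.36 FPKM in control, and Cpt1a, the gate of fatty acid entry into mitochondria, averaged 49.7 ± 3.64 FPKM with busulfan and 54.7 ± 5.43 FPKM in control (SD, n = 3 each). Abcd2, a peroxisomal fatty acid transporter listed here with the female-biased genes, lay wholly below control, at 0.63, 0.69 and 0.77 FPKM with busulfan and 1.65, 4.72 and 1.33 FPKM in control. It passed the filter on low values through the control libraries alone, as did 2 other genes, so it had to differ.

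Clock genes spread widely within both groups. Nr1d1, the repressor REV-ERB alpha, whose level swings strongly over the day, read 49.97, 15.2 and 13.8 FPKM with busulfan and 14.1, 85.6 and 73.9 FPKM in control. In each group replicate 1 stood apart, in opposite directions. Tef, another output of the clock, read 9.80, 4.01 and 3.97 FPKM with busulfan and 5.40, 13.6 and 9.01 FPKM in control. Arntl, the activator that Nr1d1 represses, read 8.86, 11.96 and 11.4 FPKM with busulfan and 13.3, 4.73 and 8.65 FPKM in control, lowest in control replicate 2, where Nr1d1 was highest. The time of day of sampling is not given in the labels. Beside these values stand those of Per1, given above, which is induced both by the clock and by glucocorticoids, and the part of the clock in the fasting and glucocorticoid values was not tested.

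Other lists are given by their counts and medians, beside a median of 0.04 over all genes. Bile acid genes read higher in 9 of 25, with 2 wholly below (Cyp2c70 and Abcc2), beside 1.35% of all genes, and a median of -0.03. Cyp7a1, the rate-limiting enzyme of bile acid synthesis, read 4.21, 30.4 and 12.2 FPKM with busulfan and 10.96, 16.97 and 15.5 FPKM in control. Genes of amino acid catabolism and the urea cycle read higher in 28 of 40, with a median of 0.06, and coagulation genes in 7 of 20, with a median of -0.06. Acute-phase proteins read higher in 12 of 24 with a median of 0.00, although the serum amyloid gene Saa1 read 152, 75.9 and 90.2 FPKM with busulfan and 79.3, 57.9 and 49.1 FPKM in control. Tfrc, the transferrin receptor, lay wholly above control, at 6.98, 6.02 and 6.07 FPKM with busulfan and 3.72, 3.93 and 5.80 FPKM in control, while Hamp, which encodes hepcidin, averaged 1770.0 ± 574 FPKM with busulfan and 1857 ± 212 FPKM in control (SD, n = 3 each). Hepatocyte markers had a median of 0.01 over 22 genes, sinusoidal endothelial markers 0.15 over 25 and stellate cell and matrix markers -0.07 over 20. Periportal hepatocyte genes had a median of 0.14 over 19, pericentral ones 0.11 over 17, female-biased genes -0.18 over 12, cholangiocyte markers 0.25 over 3, and neutrophil and monocyte markers 0.14 over 6. Erythroid markers had a median of -0.41 over 8 genes, and 0.04 without control replicate 1. The globin gene Hbb-b1 read 75.4, 21.04 and 27.9 FPKM with busulfan, against 797, 34 and 51.5 FPKM in control.

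**Figure D5:**
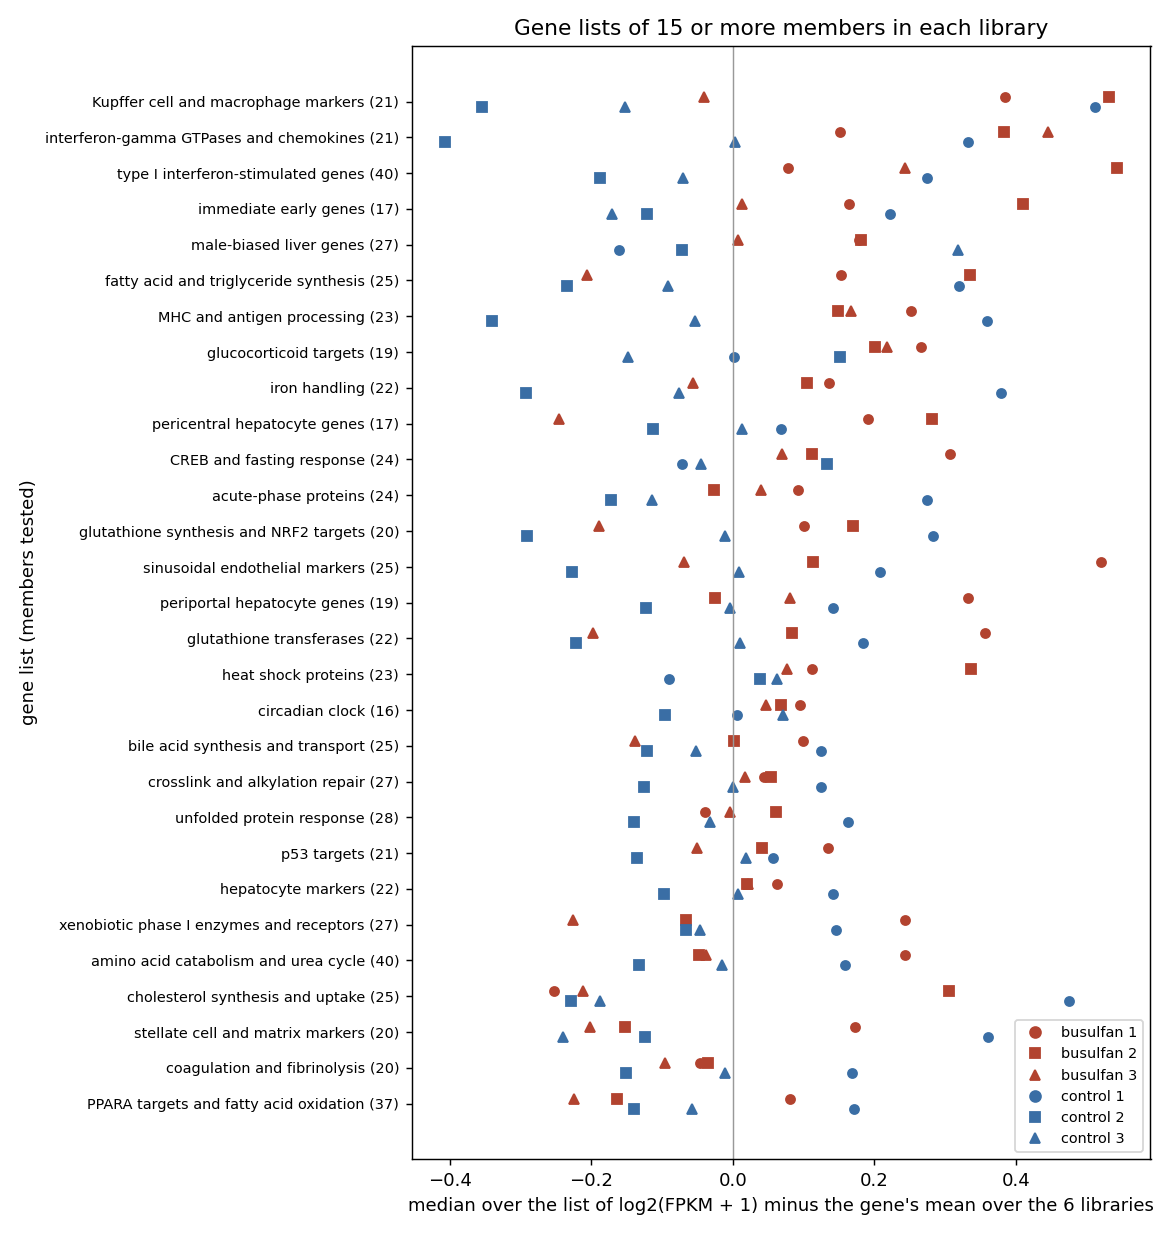
Median over each list of 15 or more tested genes of log2(FPKM + 1) minus the mean of the gene over the 3 control libraries (horizontal axis), per library, red for busulfan and blue for control with a marker shape per replicate number. The mean taken off is that of control, although the axis label names the 6 libraries. Control replicate 1 lies with or above the busulfan libraries for the macrophage, interferon, MHC and cholesterol lists, and the busulfan libraries of the glucocorticoid list, at 0.20 to 0.27, lie above all 3 control libraries.

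The genes named for busulfan alone were also read in the pair of groups that received L.J., which shares no library with it. Busulfan plus L.J. minus L.J. had the same sign as busulfan minus control in 3 of the 12 named higher genes and in 8 of the 12 named lower ones. Over all tested genes of the same direction these shares were 26.8% and 76.8%. The named genes were thus alike in sign about as often as other genes were. L.J. replicates 1 and 3 stood apart from every other library in the Mup genes, which held 1.36% and 0.0956% of their FPKM. Sik1 read 9.59, 7.75 and 6.18 FPKM in busulfan plus L.J. and 15.51, 6.09 and 12.5 FPKM in L.J., all above the 1.96 to 2.2 FPKM of control. G6pc averaged 207 ± 52.4 FPKM in busulfan plus L.J. and 238 ± 40.98 FPKM in L.J., and Tsc22d3 averaged 34.9 ± 8.05 FPKM in busulfan plus L.J. and 50.3 ± 10.2 FPKM in L.J. (SD, n = 3 each). Ifit1 averaged 2.06 ± 0.612 FPKM in busulfan plus L.J. and 2.21 ± 0.997 FPKM in L.J. (SD, n = 3 each). Most genes read lower in that pair, whichever way they read with busulfan alone. Of genes higher with busulfan alone 26.8% read higher there, and of those lower 76.8% read lower. The list counts that follow stand against these shares, not against the share for busulfan and control. The type I interferon list had a median log2 difference of -0.24 there, with 5 of 40 members higher. That of the CREB and fasting list was -0.35, with 3 of 24 higher, and that of the glucocorticoid list -0.77, with 3 of 19. The heat shock list stayed higher, at 0.14 with 18 of 23.

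Whether busulfan acted differently with and without L.J. was tested as an interaction over all 12 libraries. No gene passed, with a smallest adjusted p of 0.308 in limma, and 655 of 10260 genes had an unadjusted p under 0.05. Of the 462 genes wholly above control with busulfan alone, 17 (3.68%) were also wholly above in busulfan plus L.J. against L.J., which was 5.47% of the 311 genes above there, and 51 lay wholly below there. Over all tested genes, 3.03% lay wholly above and 9.87% wholly below in that pair of groups. Of the 139 genes wholly below control, 31 (22.3%) were also below there, which was 3.06% of 1013, and 4 lay wholly above. Gstp3 and Mettl27 were the named genes among them. Mettl27, a putative methyltransferase, read 4.92, 4.87 and 5.62 FPKM with busulfan, against 6.7, 7 and 6.56 FPKM in control, and 3.81, 4.78 and 4.84 FPKM in busulfan plus L.J., against 6.21, 5.08 and 6.22 FPKM in L.J.

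The rule on low values drew its line among weakly expressed genes. Abca7 and Bag2 were just inside it, where the third highest value of each was 1 FPKM, and Acsm2 and Aebp1 just outside, at 0.99 FPKM each. In all, 196 genes reached 1 FPKM in exactly 3 of the 6 libraries and 236 in exactly 2.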

How the data were processed

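Expression of 21004 genes in 12 liver libraries was deposited by the authors as FPKM, to 2 decimals. Reads were aligned with Bowtie 0.12.2 to mm10, per the submitters' processing notes. The quantifier, annotation and strand setting behind the values are not stated in the labels. The table holds no counts and no common step in its low values, so the depth of each library is unknown and no counting interval is given. Gene IDs were matched to RefSeq GRCm38 for 99.2% of genes, and 26 symbols stored as dates were restored.

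Genes with at least 1 FPKM in 3 of the 6 busulfan and control libraries were tested on log2(FPKM + 1), which understates the change of low genes. The test was limma 3.58.1 in R 4.3.3 (eBayes with trend, two-sided, Benjamini-Hochberg over 10260 genes, threshold 0.05), tried on simulated data. "Wholly above" and "wholly below" mean that the 3 values of each group do not overlap. Named genes were the 12 smallest p in each direction among genes that do not overlap and reach a mean of 2 FPKM, without predicted genes, and from each list its first 3 genes and the 4 smallest p. Hist1h2bq, Hist1h1c, Gstp2, Ifit2, Lpin1 and Gm40600 were named after their values were seen. The members and the 41 lists (932 genes, 904 in the table, 695 tested; the others were not analysed here) were chosen with earlier results of these data known.

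Between busulfan and control libraries of equal number, the deviations from the mean of the group correlated at 0.415 (number 1), 0.166 (number 2) and 0.117 (number 3). By the rule that all 3 exceed 0.1, the numbers were taken to pair the samples. Among unequal numbers, busulfan 3 correlated with control 2 at 0.231 and busulfan 2 with control 3 at 0.154, and the other pairs were negative. Busulfan 3 was thus closer to control 2 than to its own number, so the pairing is uncertain. The main fit does not use it, and the block is an alternative. The pairing comes from the data, not from the labels. Promoter sequences are from RefSeq. The 18 alternatives changed the pseudocount, filter, scaling, variance model, libraries, block or weights.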

Additional observations from a re-analysis of the deposited data

How the results depend on the processing

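The count of genes past the adjusted threshold, 1, was 0 without a filter on low values, at a minimum of 5 FPKM (where Hist1h2br is not tested), under quantile normalization and in both fits of all 12 libraries. It was 2 with the replicate block (Hist1h2br and Gm40600), 15 with library weights, and 0 to 2 when 1 library was left out. At an unadjusted p under 0.05, the 197 genes became 468 without a filter, 99 at 5 FPKM, 207 under quantile normalization, 130 and 139 in the fits of all 12 libraries, 1837 with library weights, 271 with the replicate block, and 110 to 757 with 1 library left out, highest without control replicate 1. Of the 601 genes whose groups did not overlap, there were 1008 without a filter, 319 at 5 FPKM, and 1035 to 2692 with 1 library left out, where smaller groups overlap less often. The cause of the shifts with weights and without control replicate 1 was not tested. The block changed no other call. The 24 named genes, 12 in each direction, had been chosen among genes whose groups do not overlap. For them, 408 of 427 values over the 18 alternatives kept direction and side of the threshold, 10 newly passed, 9 no longer passed and 0 reversed. Such genes cannot change sign unless the libraries are rescaled, so the 0 is no test of direction in the other alternatives. All but Hist1h2br began above the threshold, most of them far above it, so staying there is weak evidence of stability. Of 718 list medians, 703 stayed within the spread of the libraries and 15 moved. Depth is unknown, so counting error at low FPKM cannot be set apart.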
